A study of Mus musculus with 65 samples.

Results

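Milk protein genes differed widely between mammary glands of mice that were not described as pregnant or nursing, and the 10 glands at the 2 ends of that range are described here. Each of the 17 glands of the study was given a casein score, the mean log2 intensity of the casein genes Csn2, Csn3 and Csn1s2b, using for each gene its probe set (the group of array probes that reports 1 transcript) with the highest mean over the glands. The 5 highest-scoring glands (casein-high) were compared with the 5 lowest-scoring ones (casein-low), and the 7 glands between them (middle) were set aside for description. The classes were thus chosen by measured values, so the levels of the 3 score genes are a description and were left out of every test. The series holds 65 arrays in all, of which 48 tumour arrays were not used here.

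The mice were BALB/c littermates 10 weeks of age, and all had been injected with a mix of estrogen and progesterone to bring their cycles into step. The animals carried 1 or 2 working copies of Tgfb1 (heterozygous or wild-type), were given 10 cGy of ionizing radiation or a sham treatment, and were kept for 1 or 4 weeks before the inguinal gland was taken. Sham glands were all taken at 1 week. The casein-high class held heterozygous 10 cGy 1-week gland 2, wild-type sham glands 2 and 1, and heterozygous 10 cGy 4-week glands 2 and 1, in falling order of score. The casein-low class held wild-type 10 cGy 1-week gland 3, heterozygous 10 cGy 1-week gland 1, heterozygous sham gland 1, heterozygous 10 cGy 4-week gland 3 and wild-type 10 cGy 1-week gland 1, in the same order. Each class therefore contained 3 heterozygous and 2 wild-type glands. There were 3 irradiated and 2 sham glands in the casein-high class, against 4 irradiated glands and 1 sham gland in the casein-low class. Both wild-type casein-high glands were sham glands, and both wild-type casein-low glands were 10 cGy 1-week glands. Among wild-type glands, class and treatment therefore cannot be told apart, and the comparison of classes was not adjusted for treatment. The 7 middle glands were all 3 wild-type 10 cGy 4-week glands, heterozygous sham glands 3 and 2, wild-type sham gland 3 and wild-type 10 cGy 1-week gland 2. Whether numbered glands of a group came from separate animals is not stated, so the p-values measure the spread between these samples, which may be partly technical, and the number of arrays limits the precision.

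Caseins and the whey proteins are made by the alveolar cells of the luminal layer of the mammary epithelium, and their genes are switched on in pregnancy and lactation by prolactin acting through the transcription factor STAT5, together with glucocorticoid and ELF5. Low and uneven expression is known in the gland of the cycling animal. Progesterone and prolactin drive alveolar growth, while TGF-beta, encoded in part by Tgfb1, restrains it. The gland epithelium lies in a pad of white fat, whose adipocytes make fatty acids, and lactating alveolar cells turn on the same pathway to make milk fat.

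Total RNA from the posterior part of the gland was measured on arrays, and values are log2 of the deposited intensity. Mammary tissue markers were present in all 17 glands: the luminal keratin Krt8 lay between 11.74 and 13.25, and list means lay between 8.30 and 9.09 for basal myoepithelium and between 10.54 and 11.10 for white adipocytes. Although the lymph node was removed per the labels, the mean of the B cell and lymph node list was 6.17 in casein-high wild-type sham gland 1, and 6.62 and 7.82 in casein-low heterozygous sham gland 1 and wild-type 10 cGy 1-week gland 1, against at most 4.85 in the other 14 glands. The skeletal muscle list mean was 11.47 in casein-high wild-type sham gland 2 and 9.38 in casein-low wild-type 10 cGy 1-week gland 3, as well as 9.79 and 8.87 in 2 middle glands. The other 13 glands lay between 4.46 and 7.77 on that list. These 3 lymph-node-rich and 4 muscle-rich glands were left out in turn as alternatives chosen after the data were seen. In whole glands, fewer cells of a type and less RNA per cell cannot be told apart.

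The score spread over more than 4 log2 units. It was 11.81, 10.90, 10.02, 9.69 and 9.60 in the casein-high glands and 8.30, 8.27, 7.91, 7.90 and 7.48 in the casein-low glands. The class edges were not gaps, since the highest middle gland scored 9.52 and the lowest 8.39. Csn2, the beta-casein gene, averaged 12.16 ± 0.80 in casein-high glands and 9.44 ± 0.89 in casein-low glands (SD, n = 5 each). Csn3, the kappa-casein that stabilises casein micelles, averaged 11.76 ± 0.96 and 10.36 ± 0.69, and Csn1s2b, an alpha-S2-like casein, averaged 7.30 ± 2.12 and 4.11 ± 0.63 in the same classes. The genes did not rank the glands alike. Csn1s2b was at 8.05 to 9.54 in the 3 highest-scoring glands and at 5.26 and 4.84 in the heterozygous 4-week glands, whose Csn2 levels of 12.27 and 12.34 were above that of wild-type sham gland 1, 10.97. With Csn2 left out of the score, 3 of the 5 casein-high and 3 of the 5 casein-low glands kept their class, and with Csn3 or Csn1s2b left out 4 and 4 kept it.

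**Figure D1:**
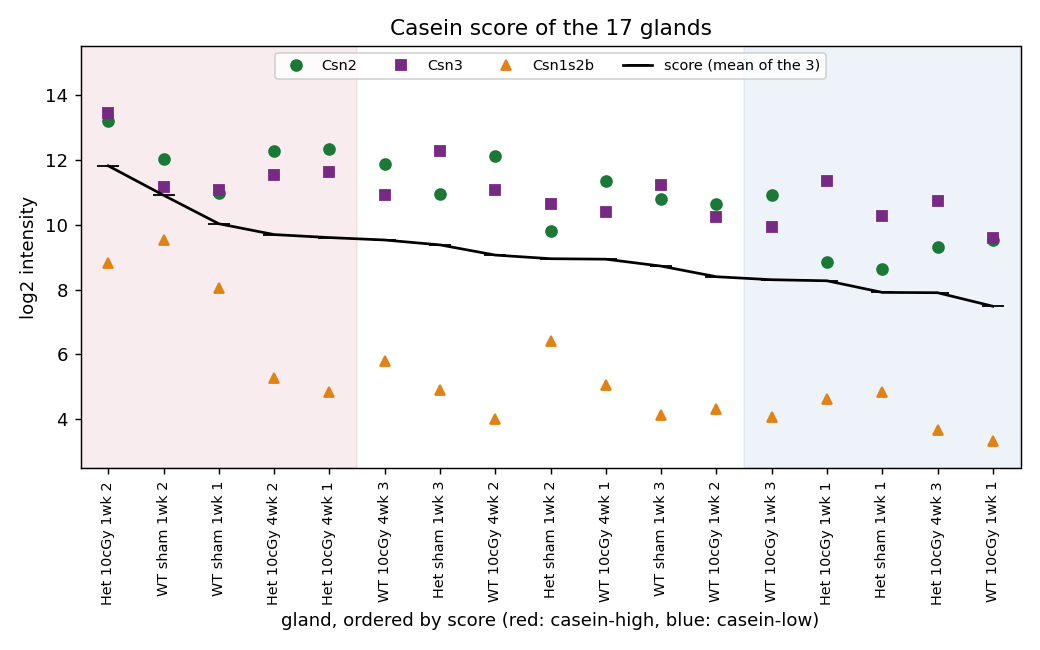
Log2 intensity of Csn2, Csn3 and Csn1s2b and their mean (black line, the casein score) in each of the 17 glands, ordered from the highest to the lowest score, with casein-high glands on red and casein-low glands on blue ground. The score runs from 11.81 to 7.48 with no gap at the class edges, and Csn1s2b separates the 3 highest-scoring glands from the rest.

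The classes cut across the heterozygous irradiated groups, while no wild-type group gave glands to both classes. The highest and a low-scoring gland, 11.81 and 8.27, were the 2 arrays of the heterozygous 10 cGy 1-week group. Heterozygous 10 cGy 4-week glands likewise gave 2 casein-high glands and 1 casein-low gland, with scores between 7.90 and 9.69. Wild-type 10 cGy 1-week glands scored 8.06 ± 0.50 (SD, n = 3), with 2 in the casein-low class and 0 in the casein-high class. Wild-type sham glands scored 9.88 ± 1.10 (SD, n = 3), with 2 in the casein-high class. The score therefore varied within groups that share genotype, dose and time, which a second fit used by following each gene against the score among glands of the same group.

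The sharpest differences outside the score were in other milk protein genes. Wap encodes whey acidic protein, a late marker of alveolar differentiation. It had log2 intensities of 13.62, 12.41, 11.39, 8.91 and 8.07 in the casein-high glands, in falling order of score, against 5.63, 3.92, 6.12, 4.50 and 5.15 in the casein-low glands. Every casein-high gland lay above every casein-low gland, and the order among the casein-high glands was that of their scores. The mean difference was 5.82 (SE 0.95; 95% interval 3.74 to 7.90), which is a 56.4-fold difference in intensity (13.3 to 238).

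Csn1s2a, another alpha-S2-type casein, had 14.03, 12.90, 11.64, 11.88 and 11.48 in the casein-high glands and 11.13, 7.70, 8.69, 8.22 and 8.37 in the casein-low glands. The classes again did not overlap, although wild-type 10 cGy 1-week gland 3 lay far above the other casein-low glands. The difference was 3.56 (SE 0.65; 95% interval 2.13 to 4.99), or 11.8-fold (4.38 to 31.8). Of its 4 other probe sets, 3 differed in the same direction by 1.95 to 3.60, and the dimmest, at a mean of 2.81, was at -0.03. Whether probes of the related genes Csn1s2a and Csn1s2b report each other's transcripts was not tested.

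The DNA just upstream of 4 milk genes is shown because STAT5 is the known activator of this gene class and its consensus can be looked for there. Each stretch is the 250 bases before the transcription start from the RefSeq promoter table of mouse build GRCm38.p6, written 5′ to 3′ on the strand of the gene, at chr11:6638650-6638899 (minus strand) for Wap, chr5:87774200-87774449 (plus) for Csn1s2a, chr5:87699426-87699675 (minus) for Csn2 and chr5:87665958-87666207 (plus) for Csn1s1. Capitals mark the letters TTCNNNGAA, which read the same on both strands. No other motif was searched.
Wap: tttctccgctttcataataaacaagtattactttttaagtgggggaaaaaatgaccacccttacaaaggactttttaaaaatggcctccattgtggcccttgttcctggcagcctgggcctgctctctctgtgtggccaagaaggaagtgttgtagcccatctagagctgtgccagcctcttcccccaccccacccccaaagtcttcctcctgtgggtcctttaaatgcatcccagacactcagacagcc
Csn1s2a: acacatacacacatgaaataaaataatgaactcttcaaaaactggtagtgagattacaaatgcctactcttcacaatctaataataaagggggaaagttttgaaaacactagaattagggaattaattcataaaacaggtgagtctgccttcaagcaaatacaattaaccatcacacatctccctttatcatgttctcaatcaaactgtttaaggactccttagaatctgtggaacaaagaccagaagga
Csn2: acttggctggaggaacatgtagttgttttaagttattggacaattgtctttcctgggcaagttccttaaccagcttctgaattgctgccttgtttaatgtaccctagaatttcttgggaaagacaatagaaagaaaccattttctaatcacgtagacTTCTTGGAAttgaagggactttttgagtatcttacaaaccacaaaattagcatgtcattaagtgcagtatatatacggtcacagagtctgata
Csn1s1: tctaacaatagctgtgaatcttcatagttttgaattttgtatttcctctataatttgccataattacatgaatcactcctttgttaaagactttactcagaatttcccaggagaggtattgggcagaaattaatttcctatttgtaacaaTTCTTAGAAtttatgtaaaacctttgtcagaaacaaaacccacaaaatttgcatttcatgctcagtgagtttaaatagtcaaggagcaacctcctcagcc
The match begins 93 bases before the start of Csn2 and 100 bases before the start of Csn1s1. In Csn1s2a the letters TTCTTAGAA begin 20 bases past the start, beyond the stretch shown, and the shown stretch of Wap holds no match. The table runs from 250 bases before to 50 bases after each start, and 2726 of its 32851 promoters (8.30%) held the letters. Of 11 milk genes looked up, the table held 8, namely these 4 and Lalba, Lao1, Glycam1 and Cel. In Glycam1 the match begins 145 bases before the start, and in the windows of Lalba, Lao1 and Cel these letters were not found. A match is a description of the letters and was not tested as a binding site.

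In limma, fitted over 12942 genes with the 3 score genes left out, 0 genes (0%) passed an adjusted p of 0.05 between the classes. The adjusted p of Wap and of Csn1s2a was 0.813, the smallest of any gene, and 749 genes (5.79%) had an unadjusted p under 0.05. The milk protein list nevertheless stood high as a group. Of its 15 members, 13 had a probe set of their own and all 13 were tested. Of these, 12 were higher in casein-high glands, where 51.2% of all tested genes were, and 6 were higher at an unadjusted p under 0.05, against 3.46% of all genes. Non-overlapping classes were found in 2 of 13 (Wap and Csn1s2a), against 0.634% of all genes, and a difference of at least 2-fold upward in 7 of 13, against 0.116%. The list median was 1.12 and that of all genes 0.0045. The list was chosen knowing that casein genes vary among these glands, so these counts are no independent evidence of its direction.

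Csn1s1, the alpha-S1 casein gene that lies beside the other caseins on chromosome 5, was at 13.86, 11.87, 10.26, 12.74 and 12.88 in casein-high glands against 11.11, 10.40, 8.68, 10.11 and 10.64 in casein-low glands. Its 4-week heterozygous glands were above both wild-type sham glands, and wild-type sham gland 1 lay within the casein-low range. The difference was 2.13 (SE 0.62). Like Csn2, and unlike Wap, Csn1s1 was therefore not ordered by the score within the casein-high class.

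Lalba and Lao1 were led by 1 gland. Lalba encodes alpha-lactalbumin, the whey protein that directs lactose synthesis, and was at 10.86 in heterozygous 10 cGy 1-week gland 2, at 7.19, 5.83, 5.44 and 6.71 in the other casein-high glands, and at 5.06 to 5.49 in casein-low glands. Its difference was 1.91 (SE 0.82). Lao1, an L-amino acid oxidase found in milk, was at 11.11 in that same gland, at 4.90 to 6.90 in the other casein-high glands and at 4.73 to 5.13 in casein-low glands, a difference of 1.93 (SE 0.95). The gland with the highest casein score thus also had the highest Wap, Csn1s2a, Csn1s1, Lalba, Lao1, Cel, Btn1a1 and Glycam1 of all 17 glands.

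Cel, the bile salt-stimulated lipase of milk, averaged 6.84 ± 1.01 in casein-high glands and 5.65 ± 0.83 in casein-low glands (SD, n = 5 each), a difference of 1.19 (SE 0.50). Btn1a1, butyrophilin of the milk fat globule membrane, averaged 8.58 ± 1.35 and 7.46 ± 0.60, a difference of 1.12 (SE 0.56), and both genes overlapped between classes. Muc1, an apical mucin that also coats milk fat globules, was at 7.50 to 8.07 in casein-high and at 6.83 to 7.61 in casein-low glands, a difference of 0.45 (SE 0.17). Mfge8, a secreted fat globule protein also made by other cells, differed by 0.28 (SE 0.14).

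The classes also overlapped in the remaining milk genes. Wfdc18 differed by 0.11 (SE 0.13), Xdh, xanthine dehydrogenase of the fat globule membrane, by 0.10 (SE 0.17), and Ltf, lactoferrin, by -0.04 (SE 0.21). Glycam1, a mucin-like protein of milk and of lymph node vessels, was at 13.53, 8.39, 7.43, 5.54 and 8.02 in casein-high glands and at 7.44, 4.25, 9.29, 5.74 and 12.04 in casein-low glands. The classes overlapped over most of their range, with a difference of 0.83 (SE 1.61). The casein-low glands with Glycam1 at 12.04 and 9.29 were those with lymph node list means of 7.82 and 6.62, and without the 3 lymph-node-rich glands the difference was 3.06.

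**Figure D2:**
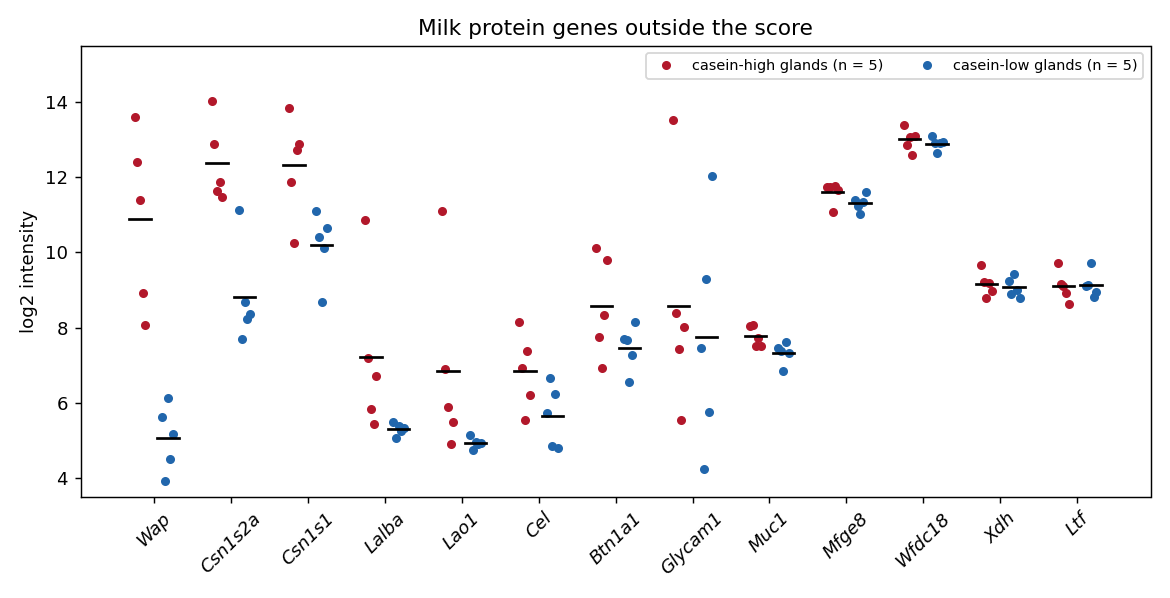
Log2 intensity of the 13 tested milk protein genes in each casein-high gland (red, left) and casein-low gland (blue, right), n = 5 each, with black bars at the class means. Wap, at 8.07 to 13.62 against 3.92 to 6.12, and Csn1s2a are without overlap, while the classes overlap in the other 11 genes.

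Middle glands filled the range between the classes. Wap was at 5.75 to 10.98 in the 7 middle glands with a median of 8.94, and Csn1s2a was at 9.08 to 12.53 with a median of 11.20. For Wap, wild-type 10 cGy 4-week gland 3, which scored just under the casein-high class, was at 10.98 and so above both heterozygous 4-week glands of that class.

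Following all 17 glands within their groups gave 2 genes past the threshold, 0.0155% of those tested, and 5.55% had an unadjusted p under 0.05. Csn1s2a rose by 1.80 per log2 unit of the score (SE 0.14, limma adjusted p = 7.45e-05) and Wap by 2.70 (SE 0.25, limma adjusted p = 0.000308). The heterozygous 10 cGy 1-week group has 2 arrays, with scores of 11.81 and 8.27, the widest spread of any group. Leaving out either array takes the whole group out of the slope, so the 2 fits are 1 check. In that check the slope was 2.66 for Wap, short of the threshold, and 1.82 for Csn1s2a, past it. With all 17 glands, all 13 milk genes had an upward slope, where 47.7% of all genes did. Of these 13, 7 had one at an unadjusted p under 0.05, against 2.1% of all genes. The score is made of milk genes and the list was chosen knowing that casein genes vary here, so these counts are no independent evidence. Next in order of p among upward slopes, and not past the threshold, were Lao1 at 1.13 (SE 0.21), Dhh at 0.22 (SE 0.04), Fabp3 at 1.43 (SE 0.30) and Tmem117 at 0.28 (SE 0.06), with limma adjusted p-values of 0.529, 0.587, 0.702 and 0.702. The downward slopes with the smallest p were those of Slc25a35 at -0.30 (SE 0.06) and Slc25a33 at -0.20 (SE 0.04), both mitochondrial carriers, Cldn4 at -0.25 (SE 0.05), Lss at -0.25 (SE 0.06), Nsdhl at -0.30 (SE 0.07) and Mtarc1 at -0.60 (SE 0.15), and none passed.

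Slopes in heterozygous and wild-type glands were compared in another fit, in which 0 genes (0%) passed and 1030 (7.96%) had an unadjusted p under 0.05. The heterozygous minus wild-type difference in slope was -0.43 for Wap and 0.29 for Csn1s2a, with limma adjusted p-values of 0.856 and 0.818. Btn1a1 had among the smallest p-values of any gene, at 1.73 (adjusted p = 0.577 in limma), and Plat, the tissue plasminogen activator, had the smallest, at -0.77 (adjusted p = 0.492). The other upward differences of smallest p were Ikzf4 at 0.44, Zbtb8b at 0.81, the integrin Itga6 at 0.44, Apc, a brake on Wnt signalling, at 0.78 and Ern1, a sensor of misfolded protein, at 0.62, and the other downward ones were Pcdh20 at -0.78, Cox7a1 at -1.21, Cfl2 at -0.38, Epdr1 at -0.89 and Cyp2j6 at -0.53. None of these passed, while without the 4 muscle-rich glands 5 genes did (Adgrd1, Cd5l, Clec4b1, Ptgis and Spon2). A p that misses the threshold does not show that the slopes were alike.

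Of 18 fatty acid synthesis genes tested, 8 had lower levels in casein-high glands than in every casein-low gland, apart from 1 casein-high gland. Elovl6, which lengthens palmitate, was at 8.54, 7.75, 11.08, 8.18 and 8.52 in casein-high glands against 10.21, 9.99, 10.45, 10.60 and 10.70 in casein-low glands. Of the casein-high glands, 4 lay more than 1 log2 unit below every casein-low gland, and wild-type sham gland 1 was the highest of all 10. The difference over all 10 glands was -1.58 (SE 0.51).

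Me1, malic enzyme, which supplies NADPH, had 9.41, 9.56, 11.94, 9.36 and 9.89 in casein-high glands and 10.87, 11.11, 11.01, 11.30 and 11.37 in casein-low glands. Fasn, fatty acid synthase, had 11.85, 11.72, 13.13, 11.78 and 11.99 against 12.74, 12.71, 12.98, 13.05 and 13.00. In both genes wild-type sham gland 1 was again above all casein-low glands and the other 4 casein-high glands were below all of them. The differences were -1.10 (SE 0.42) for Me1 and -0.80 (SE 0.24) for Fasn.

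Acly and Acaca, the enzymes that make acetyl-CoA and malonyl-CoA in the cytosol, differed by -0.99 (SE 0.35) and -0.94 (SE 0.31). Slc25a1, the mitochondrial citrate carrier, differed by -0.74 (SE 0.28), Thrsp, a lipogenic nuclear protein, by -0.63 (SE 0.23), and Scd2, a desaturase, by -0.46 (SE 0.20). These 8 genes were the members lower at an unadjusted p under 0.05, of 18 tested, against 2.33% of all genes. All 8 had the 4 casein-high glands other than wild-type sham gland 1 below every casein-low gland, a pattern described after seeing the values that 1.25% of all tested genes showed. Over the list, 13 of 18 members were lower, where 48.8% of all genes were, with a median of -0.29. The other lower members were Dgat2 at -0.33, Scd1 at -0.25, Gpam at -0.12, Srebf1 at -0.10 and Lpl at -0.01. Plin2 at 0.16, Elovl5 at 0.12, Gpat4 at 0.03 and Lpin1 at 0.002 were not lower.

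The count of genes past the threshold turned on that gland. Without wild-type sham gland 1, 11 genes (0.085%) passed limma, and all 11 fell. It was 1 of 10 fits that each left out a gland, and each of the others called 0 genes. In Fasn, Elovl6 and Me1 this gland lay above every casein-low gland, so the calls depend on leaving out a gland that went the other way. The 11 genes were Fasn, Elovl6, Me1, Acaca, Acly, Slc25a1 and Thrsp of the list, with 4 outside it. These were Tkt, a pentose phosphate pathway enzyme, Dlat, a subunit of pyruvate dehydrogenase, Angptl8, an insulin-induced regulator of lipoprotein lipase, and the aquaporin Aqp11. In that 4 against 5 comparison Elovl6 fell by 2.14 (limma adjusted p = 0.00174), Me1 by 1.57 (0.00174), Fasn by 1.06 (0.00174) and Angptl8 by 1.61 (0.00314). The other 7 fell by 0.62 to 1.70, with adjusted p-values up to 0.0437. In the same comparison Wap and Csn1s2a were at 5.69 and 3.75 and did not pass (adjusted p = 0.195 and 0.199).

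Without the 3 lymph-node-rich glands, 1 of which is wild-type sham gland 1, 4 genes (0.0309%) passed limma, namely Elovl6 at -2.02, Me1 at -1.53, Fasn at -0.997 and Angptl8 at -1.71, each at 0.0325 after adjustment. When the 4 muscle-rich glands were left out instead, 0 genes passed, and Elovl6 was at -1.36. The white adipocyte list itself had a mean of 10.54 to 11.08 in casein-high glands and of 10.60 to 11.10 in casein-low glands. With that mean as a covariate in the comparison of classes, 0 genes passed limma, as without it. Such a count cannot tell the part of adipocytes in the fatty acid result, which was not otherwise tested.

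Low fatty acid synthesis expression was not confined to casein-high glands. Heterozygous sham gland 2, with a middle score of 8.95, had Elovl6 at 8.49, Me1 at 9.47 and Fasn at 11.75, within the range of the 4 low casein-high glands or below it for Acly, at 10.57. The other 6 middle glands had Elovl6 at 9.13 or more. Across the 17 glands within their groups, 15 of the 18 list members had a downward slope, where 52.3% of all genes did, and 11 had one at an unadjusted p under 0.05, against 3.45% of all genes, with Me1 at -0.58 (SE 0.16) and Elovl6 at -0.71 (SE 0.22) per log2 unit of the score. None passed limma, the adjusted p of these 2 genes being 0.823 and 0.859.

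**Figure D3:**
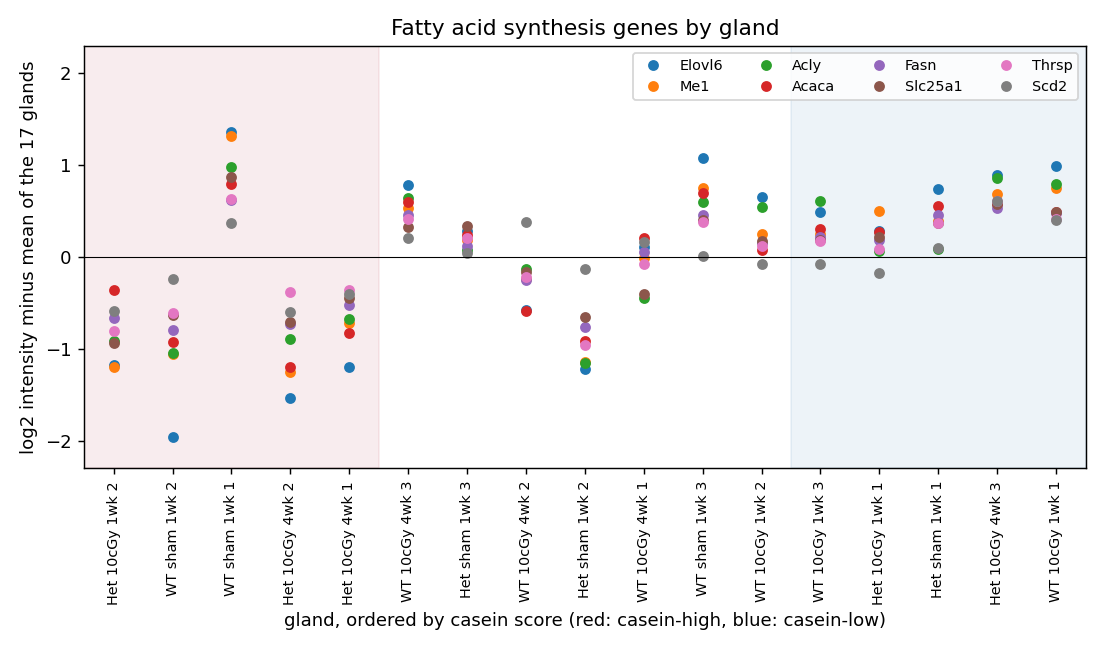
Log2 intensity of 8 fatty acid synthesis genes minus each gene's mean over the 17 glands, with glands ordered from the highest to the lowest casein score and casein-high glands on red, casein-low glands on blue ground. Casein-high glands other than wild-type sham gland 1 lie below 0 for all 8 genes, as does middle heterozygous sham gland 2.

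Fabp3 went against its list. It encodes a fatty acid-binding protein of heart, muscle and the lactating gland, and was at 11.20, 8.75, 5.03, 4.38 and 5.13 in casein-high glands and at 5.74, 4.37, 4.37, 3.90 and 4.16 in casein-low glands. The difference was 2.39 (SE 1.15) and rested on the first 2 glands. The second of these and the highest casein-low gland were the muscle-rich ones of their classes, with muscle list means of 11.47 and 9.38, while the first had a mean of 7.77. Without the 4 muscle-rich glands the difference was 2.24.

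Mlxipl encodes ChREBP, the carbohydrate-responsive activator of lipogenic genes, and had the smallest p among genes lower in casein-high glands. It was at 8.49, 8.31, 8.65, 8.48 and 8.51 in casein-high glands, all below the 8.91, 8.81, 9.04, 9.35 and 8.93 of the casein-low glands. Here wild-type sham gland 1 was the highest of its class and still below all casein-low glands. The difference was -0.52 (SE 0.11). Next in p were Alas1, the first enzyme of haem synthesis, at -0.50 (SE 0.10), Ppdpf at -0.32 (SE 0.07), Marchf10 at -0.46 (SE 0.10), 2610206C17Rik at -0.42 (SE 0.09) and Swi5, a DNA recombination factor, at -0.45 (SE 0.11). These 6 genes did not overlap between classes, as 0.394% of all genes did not in this direction, and none passed. Middle glands ran past both classes for Alas1, at 8.61 to 9.98, and for Swi5 reached 9.08, below every casein-high gland. In Ppdpf and Marchf10 they also passed an end, and in Mlxipl and 2610206C17Rik they stayed within the ends of the classes. The signal of 2610206C17Rik was dim, at 3.81 to 4.55 over all glands, around the filter level of 4.15. The other probe set of Marchf10, at a mean of 3.62, was at -0.08.

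The genes of the cholesterol pathway, which shares its regulator family with fatty acid synthesis, were lower in 10 of 12 cases, against 48.8% of all genes, with a median of -0.08 that was -0.22 without wild-type sham gland 1, and 1 was lower at an unadjusted p under 0.05, against 2.33% of all genes. That gene was Lss, lanosterol synthase, at -0.45 (SE 0.17), while Hmgcs1, an early enzyme of the pathway, was at 0.26 (SE 0.17). Within groups 11 of 12 had a downward slope (52.3% of all genes), 4 of them at an unadjusted p under 0.05 (3.45% of all genes). Nsdhl, named above for its slope, is a sterol dehydrogenase of the same pathway outside the list. None of these passed the threshold.

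**Figure D4:**
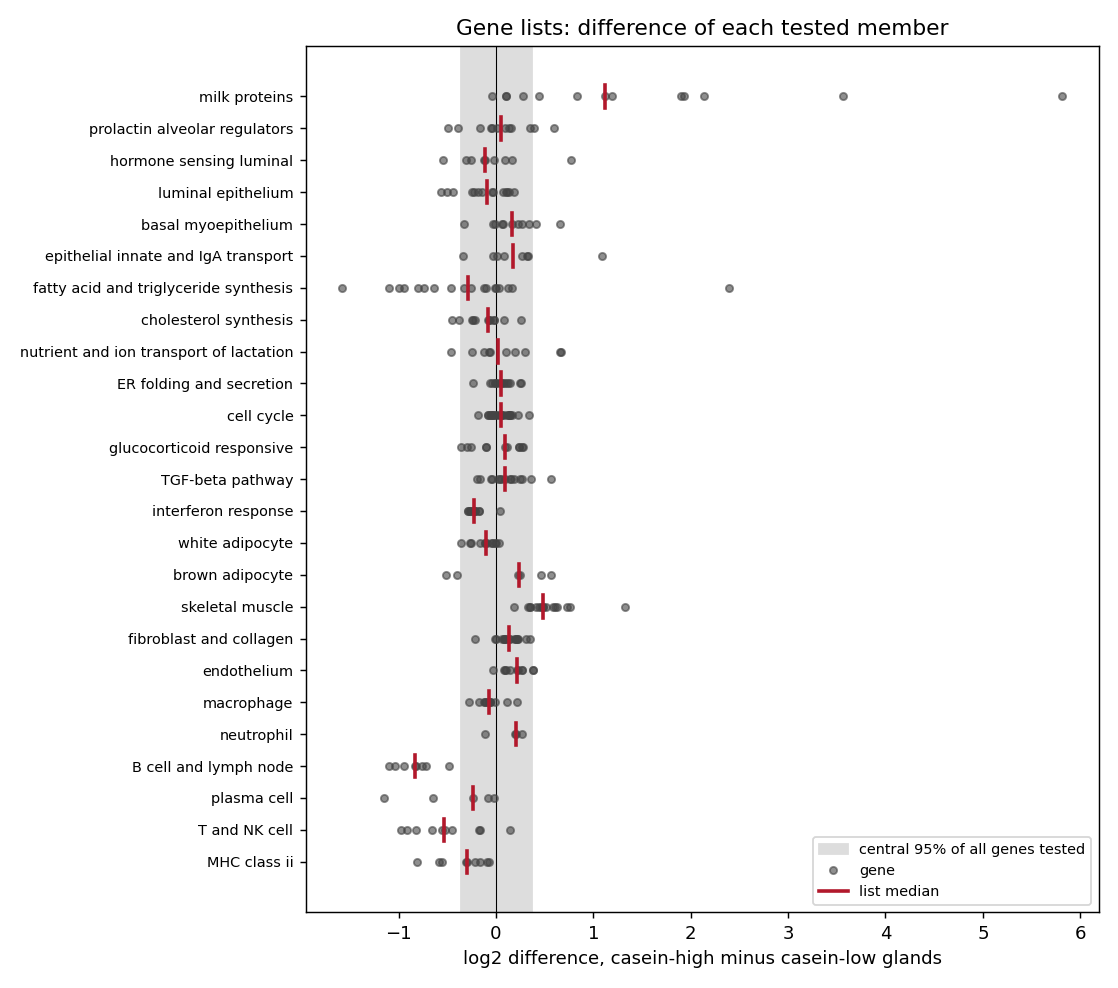
Log2 difference, casein-high minus casein-low glands, of each tested member (dots) of 25 gene lists with the list median (red bar), over the central 95% of all 12942 genes tested (grey). Milk proteins reach from -0.04 to 5.82 with a median of 1.12, and fatty acid and triglyceride synthesis from -1.58 to 2.39 with a median of -0.29.

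Regulators of alveolar differentiation were not shifted as a group, with 7 of 12 tested members higher and a median of 0.05. For this list and those that follow, 51.2% of all genes were higher and 48.8% lower. At an unadjusted limma p under 0.05 these shares were 3.46% and 2.33%. Elf5, the transcription factor that specifies alveolar cells, was at 10.53, 10.03, 9.96, 10.74 and 10.82 in casein-high glands and at 10.13, 10.10, 8.82, 10.11 and 9.92 in casein-low glands. The ranges overlapped, and heterozygous sham gland 1 was lowest. The difference was 0.60 (SE 0.27), the only member higher at an unadjusted p under 0.05. Socs2, a feedback inhibitor induced by STAT5, was at -0.49 (SE 0.24).

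Of 15 genes of protein folding and secretion 10 were higher, and their median was 0.06, or -0.01 without the lymph-node-rich glands. Hspa5, the main chaperone of the endoplasmic reticulum, was at 0.26 (SE 0.09). Sel1l, an adaptor that removes misfolded proteins from that compartment, was at 8.88 to 9.14 in casein-high glands against 8.69 to 8.84 in casein-low glands. The difference was 0.24 (SE 0.07) without overlap, as in 0.634% of all genes in this direction, and its other probe sets were at -0.02 to 0.17. Transporters of the lactating gland were higher in 5 of 10 cases. Among them Slc34a2, a phosphate carrier, was at 0.66 (SE 0.29) and Slc30a4, a zinc carrier, at 0.20 (SE 0.09). Pigr, which carries IgA across the epithelium into milk, was at 7.24 in heterozygous 10 cGy 1-week gland 2, at 4.28 to 5.77 in the other casein-high glands and at 3.45 to 4.64 in casein-low glands, a difference of 1.08 (SE 0.51).

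Most luminal markers did not follow the milk genes upward. Of 14 luminal markers, 9 were lower, where 48.8% of all genes were, with a median of -0.09. Of these, 2 were lower at an unadjusted p under 0.05, against 2.33% of all genes. Krt7, a luminal keratin, was at 9.57, 9.19, 9.49, 8.86 and 9.38 in casein-high glands against 9.63, 10.30, 10.17, 9.57 and 9.63 in casein-low glands. The classes met at 9.57 without overlapping, as in 0.394% of all genes in this direction, and the difference was -0.56 (SE 0.18). Cldn4, a tight junction protein, was at -0.51 (SE 0.19), Krt8 at -0.24 (SE 0.14) and Krt18, its partner keratin, at -0.14 (SE 0.13).

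The luminal list mean was 9.97 to 10.25 in casein-high glands and 10.25 to 10.42 in casein-low glands, and reached 10.79 in middle glands. Basal markers were higher in 8 of 11 cases (51.2% of all genes) with a median of 0.16. Trp63, the p63 factor of basal cells, was at 7.68 to 7.88 in casein-high glands and at 6.19 to 7.71 in casein-low glands. The lowest was heterozygous sham gland 1. The difference in Trp63 was 0.66 (SE 0.24), or 0.46 without the lymph-node-rich glands, and its other, dimmer probe sets were at -0.18 to 0.14. Mylk, the myosin kinase of contractile cells, was at 0.41 (SE 0.15). Hormone-sensing luminal markers were lower in 6 of 9 cases, with Greb1, an estrogen-induced gene, at -0.54 (SE 0.30) and Cited1 at 0.77 (SE 0.45), or -0.08 without the 3 lymph-node-rich glands. Of 23 cell cycle genes 15 were higher, with a median of 0.05 and 0 at an unadjusted p under 0.05. That median had no steady direction, being -0.51 without the 3 lymph-node-rich glands, -0.14 without wild-type sham gland 1 and 0.30 without the 4 muscle-rich glands, with Mcm2 and Mcm7 of the replication helicase being at 0.22 (SE 0.30) and 0.15 (SE 0.24).

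**Figure D5:**
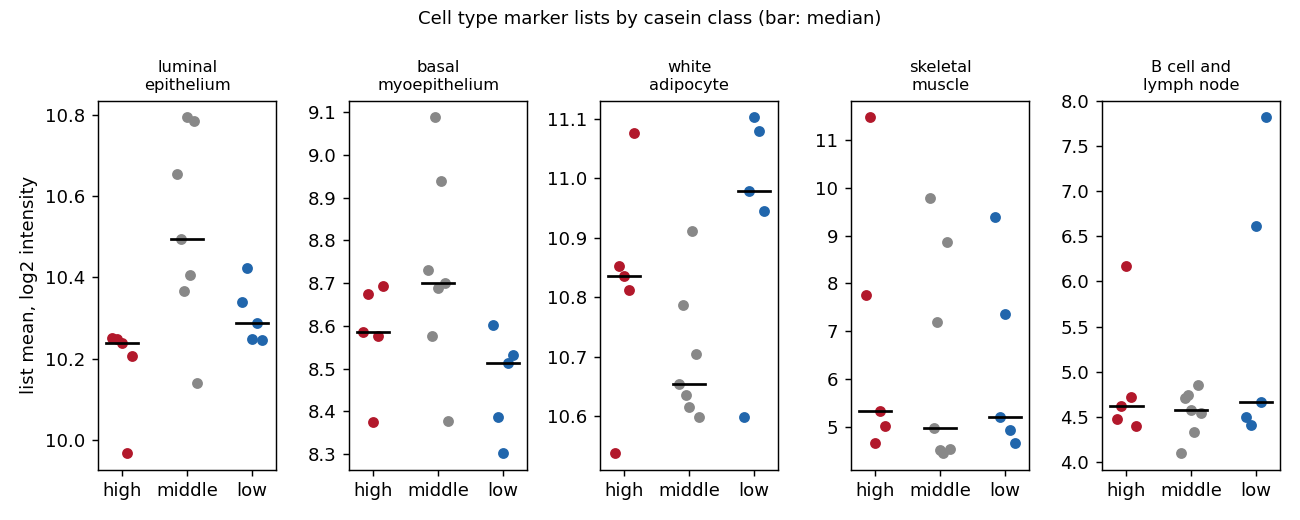
Mean log2 intensity of 5 cell type marker lists in each gland, by casein class (high n = 5, middle n = 7, low n = 5), with bars at the medians and a separate axis for each list. Single glands set the upper end of the muscle list (11.47 in the casein-high class) and of the B cell and lymph node list (7.82 in the casein-low class).

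Other cell type lists moved with single glands. All 8 tested B cell and lymph node markers were lower in casein-high glands, with a median of -0.83, and without the 3 lymph-node-rich glands that median was 0.02. Cd79b, a subunit of the B cell receptor, was at 4.55 to 6.98 in casein-high glands and at 4.95 to 9.03 in casein-low glands. T and NK cell markers were lower in 9 of 10 cases with a median of -0.53, at -0.05 without those glands, and MHC class II genes in 9 of 9 with a median of -0.29, at 0.06 without them. Cd8a, a co-receptor of cytotoxic T cells, was at -0.46 (SE 0.14) and stayed at -0.46 without those glands. Jchain, which joins IgA and IgM units, was at -1.14 (SE 0.63), or -0.16 without those glands.

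All 16 skeletal muscle markers were higher in casein-high glands, with a median of 0.49 that became 0.08 without the 4 muscle-rich glands. Myh1, a fast myosin, was at 1.33 (SE 1.75) and Mb, myoglobin, at 0.76 (SE 0.89). White adipocyte markers were lower in 11 of 12 cases with a median of -0.10. That median was -0.03 without the lymph-node-rich glands and -0.18 without the muscle-rich glands. All 12 had a downward slope within groups (52.3% of all genes), 4 at an unadjusted p under 0.05 (3.45% of all genes). Slc2a4, the insulin-sensitive glucose carrier, was at -0.36 (SE 0.14) and Pparg, the master regulator of adipocytes, at -0.27 (SE 0.13). Brown adipocyte markers were higher in 4 of 6 cases with a median of 0.24, or -0.02 without the muscle-rich glands, with Dio2 at -0.51 (SE 0.33) and Prdm16 at 0.23 (SE 0.16).

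Among stromal and immune lists, endothelial markers were higher in 10 of 11 cases with a median of 0.22. That median was 0.35 without the lymph-node-rich glands and 0.13 without the muscle-rich glands. The smallest p in this list was in the receptor Tek at 0.38 (SE 0.18) and Egfl7 at 0.27 (SE 0.13). Fibroblast and collagen genes were higher in 14 of 17 with a median of 0.14, with the smallest p in Col6a1 at 0.22 (SE 0.08) and Pdgfrb at 0.35 (SE 0.15). Interferon-responsive genes were lower in 11 of 12 with a median of -0.22, or -0.12 without the lymph-node-rich glands, and had their smallest p in the immunoproteasome subunits Psmb8 at -0.22 (SE 0.10) and Psmb9 at -0.27 (SE 0.13). Macrophage markers lay lower in 10 of 12 with a median of -0.07, with Tyrobp at -0.27 (SE 0.17) and Cd163 at 0.22 (SE 0.21). Plasma cell genes were lower in 5 of 5 with a median of -0.24, which was -0.0083 without the 3 lymph-node-rich glands. Derl3 of that list was at -0.24 (SE 0.10) and stayed at -0.24 without those glands. Of 4 neutrophil genes 3 were higher, with S100a9 at 0.26 (SE 0.21) and Csf3r at -0.11 (SE 0.11), and their median of 0.20 was 0.03 without the lymph-node-rich glands. Of 11 glucocorticoid-responsive genes 6 were higher, with a median of 0.09 that was -0.12 without those glands, and with Klf9 at 0.27 (SE 0.15) and Cdkn1a at -0.30 (SE 0.17). Among innate genes of the epithelium 6 of 8 were higher, with Cd14 at 0.32 (SE 0.12). Of all genes tested, 51.2% were higher and 48.8% were lower. No member of these lists passed limma in the comparison of classes.

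Tgfb1 did not follow the classes. It was at 3.81 to 5.10 in casein-high glands and at 3.85 to 5.45 in casein-low glands, a difference of 0.02 (SE 0.31; 95% interval -0.66 to 0.70), and both classes hold 3 heterozygous glands. Of 15 genes of the TGF-beta pathway 11 were higher with a median of 0.09. Tgfbr3, a co-receptor also called betaglycan, was at 10.98, 11.29, 10.91, 11.39 and 11.20 in casein-high glands and at 11.00, 10.50, 10.81, 10.86 and 10.79 in casein-low glands, and of the casein-low glands only wild-type 10 cGy 1-week gland 3 lay above the lowest casein-high gland. The difference was 0.36 (SE 0.11). Smad4, the shared mediator of the pathway, was at 0.26 (SE 0.10), and neither passed.

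After Wap and Csn1s2a, the genes higher in casein-high glands with the smallest p were Lipa, a lysosomal lipase, at 0.49 (SE 0.11), Stox2 at 0.42 (SE 0.10), Naa30, an N-terminal acetyltransferase, at 0.40 (SE 0.09), and Dmd, dystrophin, at 0.52 (SE 0.12). Lipa was at 8.34 to 8.65 in casein-high glands and at 7.74 to 8.36 in casein-low glands. Stox2, Naa30 and Dmd did not overlap between classes, as 0.634% of all genes did not in this direction. The other probe sets of Stox2 differed by 0.06 to 0.26, that of Naa30 by 0.41 and those of Dmd by 0.10 to 0.64. In all 4 genes wild-type 10 cGy 4-week gland 3 or another middle gland reached the casein-high range, and none of the 4 passed the threshold.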

How the data were processed

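The gland values were deposited as intensity on a linear scale, made with RMA (background correction, normalization between arrays and summary of probes) per the submitters' processing notes, with a version not given in the sources used here. They were converted to log2 here, with array medians of 4.86 to 4.93. The authors deposited the tumour values in log2 units, and these were not used. Of 45101 probe sets, 34958 had 1 gene in the platform annotation, and for each of 18194 genes the probe set brightest on average in the 17 glands was kept. Genes under the 40th percentile of probe set means (4.15) were set aside, which left 12942 without the 3 score genes. Detection above background is not part of these values.

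The members and lists were chosen with earlier results of these data known. Classes were compared with limma 3.58.1 in R 4.3.3 (empirical Bayes with a variance trend, two-sided, Benjamini-Hochberg over all genes, threshold 0.05, 8 residual degrees of freedom). The score slope was fitted over 17 glands with a mean for each of 6 groups (10 degrees of freedom) and, in another fit, with its difference between genotypes (9). The code was tested on simulated data. Named were the 6 genes with the smallest p in each direction of each fit, all milk genes, the members of other lists past the threshold or else the 2 with the smallest p, and Tgfb1. The fatty acid members at an unadjusted p under 0.05, the genes called without wild-type sham gland 1, Krt8 and Krt18 were added after their values were seen, and Fabp3 and Nsdhl came from the slope fit. Deviations from group means were correlated between glands of the same genotype from different groups. The correlations were -0.22 to 0.32 in 16 same-numbered pairs and -0.46 to 0.48 in 32 others. These ranges overlap, and deviations in the group of 2 arrays mirror each other, so they cannot tell whether same-numbered glands belong together. The groups of 2 to 3 arrays had within-group correlations of 0.951 to 0.987, and 0 arrays were identical.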

Additional observations from a re-analysis of the deposited data

Results flagged for a closer look

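Each named gene was checked in each class, 204 sets of 5 glands, and in 21 of them Dixon's test set 1 gland apart from the rest of its class. Chance alone flags about 1 set in 20. Wild-type sham gland 1 was the gland in 9 of the 21. Many of these genes were named because their call appeared when that gland was left out, so its place in them follows from the choice of genes and its count is no comparison with chance. In the casein-high class it was high in Fasn (13.13, the nearest other gland at 11.99), Elovl6 (11.08 and 8.54), Me1 (11.94 and 9.89), Acly (12.70 and 11.04), Slc25a1 (10.37 and 9.04), Angptl8 (7.64 and 5.86), Aqp11 (7.36 and 5.24) and Dlat (9.67 and 8.77), and low in Mfge8 (11.09 and 11.66). Its B cell and lymph node list mean of 6.17 was the highest of its class, and the part of those markers was not tested.

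Wild-type sham gland 2, the most muscle-rich gland, was set apart in the casein-high class in Mb (10.62, nearest 6.80) and, on the low side, in Trp63 (7.68, nearest 7.83). Muscle-rich wild-type 10 cGy 1-week gland 3 was set apart in the casein-low class in Csn1s2a (11.13, nearest 8.69) and Fabp3 (5.74, nearest 4.37). Heterozygous sham gland 1 was low in Elf5 in the casein-low class (8.82, nearest 9.92). In the casein-high class, heterozygous 10 cGy 1-week gland 2 was low in H2-DMa (7.25, nearest 7.85) and Cyp2j6 (4.79, nearest 5.75), heterozygous 10 cGy 4-week gland 2 was low in Csf3r (5.36, nearest 5.50) and heterozygous 10 cGy 4-week gland 1 was high in Apc (9.30, nearest 8.63). In the casein-low class, lymph-node-rich wild-type 10 cGy 1-week gland 1 was high in Apc (9.53, nearest 8.66) and low in Plat (8.02, nearest 8.59) and Epdr1 (6.10, nearest 7.21).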

How the results depend on the processing

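The comparison of classes called 0 genes in the alternatives run apart from 3: without wild-type sham gland 1 (0 to 11 over leaving out each gland in turn), without the 3 lymph-node-rich glands (4), and in a slope on the score over all 17 glands without groups (2, Wap at 2.32 and Csn1s2a at 1.45 per log2 unit). The slope within groups called 2 genes in the alternatives run, or 1 to 2 when each gland was left out, and the slope difference between genotypes called 0 except without the 4 muscle-rich glands (5). With the repeat number as a replicate block, the counts were 0, 2 and 0, as without it. Repeat 2 occurred only in the casein-high class and repeat 3 only in the casein-low class. The class difference with the block therefore rested on repeat 1 glands, and that of Wap was 4.67 against 5.82 without it. Genes at an unadjusted p under 0.05 between the classes fell from 749 to 272. A class count that was already 0 cannot show whether the block matters. Some uncalled differences between classes changed sign, and the cause was not tested. Leaving out each gland, Xdh reached -0.0279, Glycam1 -0.405 and -0.0446, Ltf 0.0054, 0.0795 and 0.102, Mb -0.164, Myh1 -0.042 and Tgfb1 -0.154, -0.108, -0.0918 and -0.0382. With the block, Xdh was -0.154, Glycam1 -0.798, Dio2 0.0806, Prdm16 -0.0203, Mb -0.0458 and Myh1 -0.648. With 6 glands a class, Xdh was -0.0362, Ltf 0.0566, Cd163 -0.174 and Tgfb1 -0.106, and with 4 a class Ltf was 0.0731. With scaled score genes, Ltf was 0.120, Cd163 -0.0616 and Tgfb1 -0.272. With the 17-gland slope, Ltf was 0.115 and Tgfb1 -0.104. With the luminal list as a covariate, Ltf was 0.0467, Mcm2 -0.0874, Tgfb1 -0.191, Krt8 0.0058 and Krt18 0.0729. Averaging probe sets put Tgfb1 at -0.127. Without the lymph-node-rich glands, Ltf was 0.0799, Cited1 -0.0797, Mcm7 -0.0486 and Cxcl13 0.163, and without the muscle-rich glands Tgfb1 was -0.0575. With classes of 5 arrays, cut from a continuous score in whole tissue, differences in cell makeup and in expression per cell cannot be separated.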
